A study of Mus musculus with 24 samples.

Results

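RNA from Ly6C low monocytes of the spleen was compared between *Slc29a3*-/- and WT mice, with 4 libraries of each genotype, which are 8 of the 24 libraries of the series. The libraries were chosen by their labels alone. *Slc29a3*-/- mice were C57BL/6 mice with a stop introduced into an early exon by CRISPR/Cas9, bred by intercrossing animals heterozygous for the *Slc29a3* and *Tlr7* mutations, whereas the WT mice were C57BL/6 mice bought from a supplier and so were not littermates. No mouse was treated, and the labels give neither age nor sex, nor whether each library came from its own mouse, so that the P values below measure only the spread between these libraries. Lymphocytes, NK cells, neutrophils, and erythroid cells were first depleted with magnetic beads, and CD11b+ cells that were low in Ly6C, positive for FcγRIV (Fcgr4), and negative for Ly6G, NK1.1, and, per the labels, SiglecF were then sorted. The labels call the cells macrophages, and the study's methods call them monocytes. Libraries were made by amplifying 1 short stretch of each gene (an amplicon) with the Ion AmpliSeq Transcriptome Mouse kit, and a value is the number of reads of that amplicon per 1000000 reads of the library (RPM). The 4 *Slc29a3*-/- *Tlr7*-/- libraries of Ly6C low monocytes, in which both genes were mutated, entered the fit for the estimate of the spread.

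SLC29A3 is a transporter that carries nucleosides from the lysosome to the cytosol, where they are reused. Without it, nucleosides from engulfed and degraded nucleic acids build up in the lysosome. From this compartment, TLR7 senses guanosine or deoxyguanosine together with short pieces of RNA that contain uridine. Ly6C low monocytes are the nonclassical or patrolling monocytes, which crawl along the inner wall of blood vessels, clear debris, and carry the Fc receptor FcγRIV, and which arise from Ly6C high monocytes with the help of the nuclear receptor NR4A1.

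The WT libraries were not alike. WT replicates 1 to 3 carried barcodes 11, 12, and 13, and WT replicate 4 carried barcode 35, close to barcodes 30 to 33 of the *Slc29a3*-/- libraries. Over the 10317 genes tested, WT replicate 4 lay 54.3 to 60.4 log2 units (Euclidean distance) from the *Slc29a3*-/- libraries and 67.4 to 78.1 from WT replicates 1 to 3, whereas the *Slc29a3*-/- libraries lay 31.6 to 41.7 apart and WT replicates 1 to 3 lay 27.4 to 44.4 apart. *Xist*, the RNA that silences 1 X chromosome in female cells, was at 0 RPM in WT replicate 4 and in *Slc29a3*-/- replicate 1, and at 379 to 695 RPM in the other 6 libraries. *Ddx3y*, a gene of the Y chromosome, was at 197 and 165 RPM in the same pair of libraries and at most 0.080 RPM in the others. Each genotype thus held 1 male and 3 female libraries, and the only male WT library was also the only one outside barcodes 11 to 13. The barcode range and sex of the WT libraries cannot be told apart. Results are therefore given against all 4 WT libraries and against WT replicate 4 alone, for which the spread was taken from the other groups. Depth was inferred from the step between the lowest values as 12500000 to 14572266 reads per library, and a value of 0 allows up to 3 reads, or 0.206 to 0.240 RPM, counting error only.

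**Figure D1:**
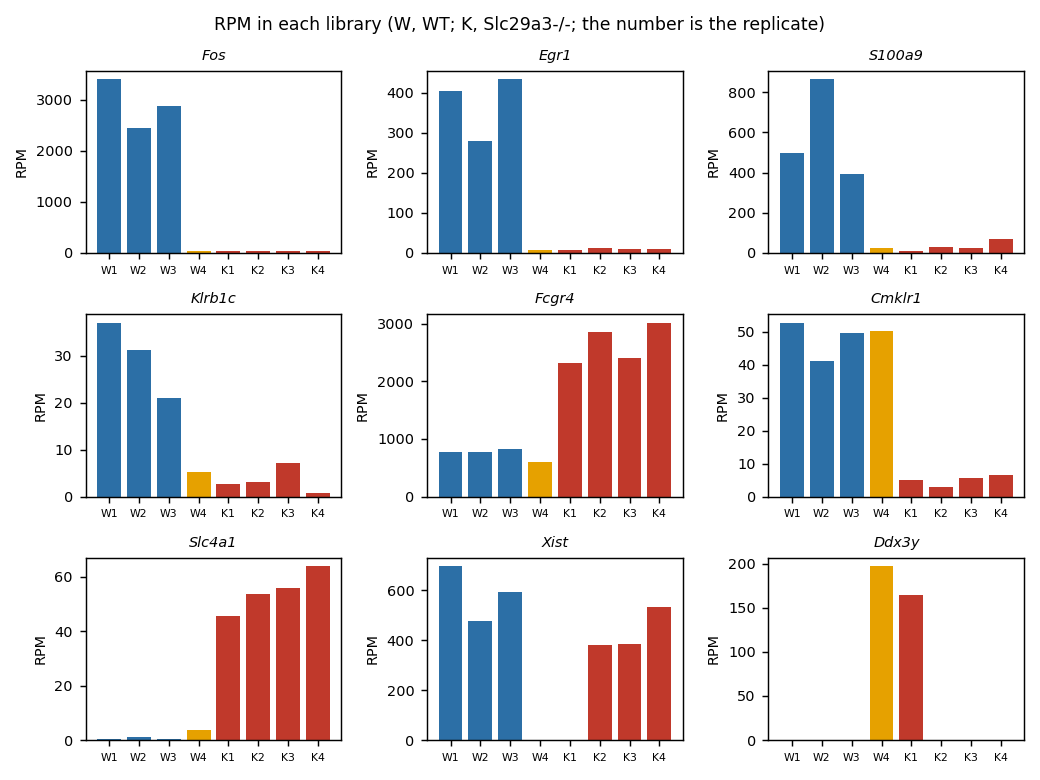
RPM of 9 genes in each of the 8 libraries (bars, 1 library each; W, WT, with replicate 4 in yellow; K, *Slc29a3*-/-), on linear axes that start at 0. For *Fos*, *Egr1*, *S100a9*, and *Klrb1c*, WT replicate 4 stood with the *Slc29a3*-/- libraries, and for *Fcgr4*, *Cmklr1*, and *Slc4a1* it stood with the other WT libraries.

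The amplicon of *Slc29a3* (chromosome 10, 60712072 to 60752794 on mm10) did not report the mutation. It was read at 49.9, 61.4, 57.4, and 64.3 RPM in *Slc29a3*-/- and at 47.2, 40.7, 45.1, and 74.03 RPM in WT libraries, and the groups overlapped (adjusted P = 0.635 in limma). *Tlr7* (chromosome X, 167304929 to 167330558), whose product is the endosomal receptor for guanosine and RNA, was read at 411, 391, 403, and 400.2 RPM in *Slc29a3*-/- and 479, 298, 331, and 414 RPM in WT libraries, also with overlap (adjusted P = 0.823). The genotypes therefore rest on the labels.

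Against all 4 WT libraries, 634 genes (6.15% of those tested) were higher and 727 (7.05%) were lower in *Slc29a3*-/- monocytes by over 1.5-fold with a P under 0.05 before adjustment, the thresholds of the study's methods. With a Benjamini-Hochberg adjusted P under 0.05, 196 genes (1.90%) rose and 261 (2.53%) fell, and below "rose" and "fell" are used of such genes only. Counts of genes in the lists below are to be read beside these shares of all genes tested. The 4 *Slc29a3*-/- libraries did not overlap with the 4 WT libraries, in either direction, for 1823 genes (17.7%). Against WT replicate 4 alone, 210 genes (2.04%) were higher and 626 (6.07%) lower at the unadjusted threshold, and 29 (0.281%) rose and 52 (0.504%) fell at the adjusted one, while the median log2 fold change of all genes moved from 0.002 to -0.19. Of the 196 genes that rose, 131 (66.8%) were also over 1.5-fold higher than in WT replicate 4, and of the 261 that fell, 183 (70.1%) were also over 1.5-fold lower. Without WT replicate 4, 798 genes rose and 608 fell. A separate fit held only the 6 female libraries of these groups (WT replicates 1 to 3 and *Slc29a3*-/- replicates 2 to 4) and no *Slc29a3*-/- *Tlr7*-/- library, and there 1311 genes rose and 868 fell. These fits without WT replicate 4 held only WT libraries of barcodes 11 to 13, so genotype and barcode range cannot be told apart. The 4 WT and 4 *Slc29a3*-/- libraries fitted alone gave 351 and 504. For comparison, WT replicates 1 to 3 themselves differed from WT replicate 4 in 1967 genes at the unadjusted threshold.

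**Figure D2:**
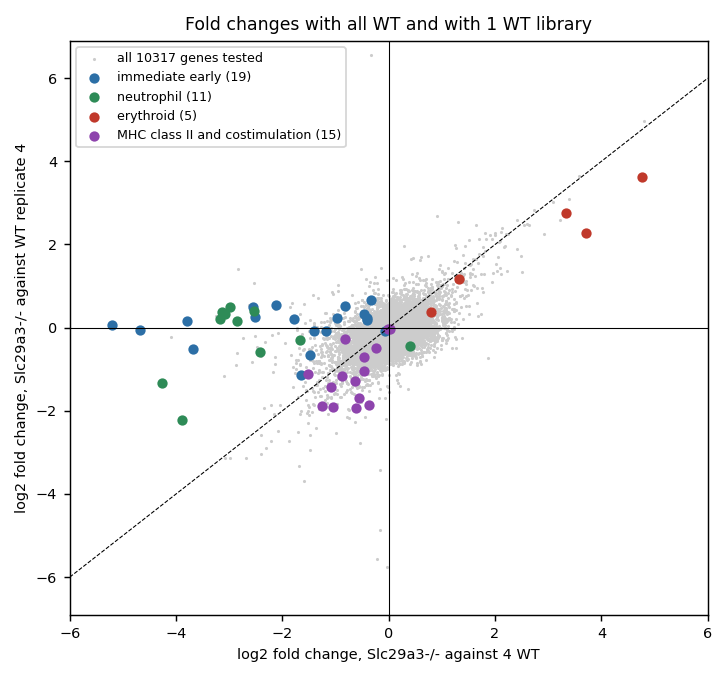
Log2 fold change of each of the 10317 genes tested in *Slc29a3*-/- libraries against all 4 WT libraries (x axis) and against WT replicate 4 alone (y axis), with 4 gene lists in colour and equal values on the dashed line. Both axes use the same *Slc29a3*-/- libraries. Most immediate early and neutrophil genes lay near 0 on the y axis, whereas all 5 erythroid genes and most MHC class II genes kept their sign on both axes.

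The genes named first are the 12 with the largest rise and the 12 with the largest fall among genes whose mean was 10 RPM or more, with no overlap between the groups, and the same direction at over 1.5-fold against WT replicate 4. The conditions were met by 80 genes that rose and 115 that fell. Of the 24 genes named, all but *Rmrp* passed the adjusted threshold with any 1 of the 8 libraries left out.

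*Fcrl5* had the largest rise of the 12, and 4 of the 12 genes that rose, named together here after their values had been seen, encode receptors with inhibitory functions. *Fcrl5* (chromosome 3, 87435773 to 87500678), an Fc receptor-like protein best known from B cells, was at 67.7, 111, 81.2, and 122 RPM in the 4 *Slc29a3*-/- libraries and 3.35, 2.88, 1.61, and 1.99 RPM in the 4 WT libraries. This was a rise of 4.79 ± 0.26 (SE) on the log2 scale (adjusted P = 3.34e-07), and of 4.97 against WT replicate 4. *Cd72* (chromosome 4, 43446462 to 43454628), a C-type lectin with an inhibitory tail that binds semaphorin 4D and is also best known from B cells, was at 101.2, 193, 147, and 209.8 RPM against 14.05, 15.03, 11.8, and 25.4 RPM (log2 fold change 3.22 ± 0.27, adjusted P = 1.76e-05). WT replicate 4 was the highest WT library of *Cd72*, and it lay below every *Slc29a3*-/- library, as the choice of genes required. *Siglece* (chromosome 7, 43651070 to 43660161), a sialic acid-binding inhibitory receptor of myeloid cells, was at 259, 302, 343, and 359 RPM against 76.1, 79.3, 70.6, and 58.9 RPM (log2 fold change 2.13, adjusted P = 1.58e-05). *Cd200r1* (chromosome 16, 44765736 to 44794978), the receptor through which CD200 restrains myeloid cells, was at 13.6, 26.1, 25.2, and 50.7 RPM against 3.704, 5.97, 4.495, and 5.98 RPM (log2 fold change 2.18, adjusted P = 0.00471), and its *Slc29a3*-/- libraries were spread more widely than its WT libraries. The B cell marker list did not move with the pair best known from B cells: of its 10 genes 2 passed the filter and 0 were higher or lower at the unadjusted threshold, and the summed level was 37.5 to 61.5 RPM in *Slc29a3*-/- and 34.2 to 43.5 RPM in WT libraries. *Cd79a* and *Ighm* of that list were not analysed here.

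Adhesion molecules were also among the genes with the largest rise. *Itgb3* (chromosome 11, 104608000 to 104670476), the integrin chain that pairs with αv on macrophages and with αIIb on platelets, was at 257, 258, 226, and 195 RPM in *Slc29a3*-/- and 32.2, 36.2, 37.8, and 41 RPM in WT libraries (log2 fold change 2.63 ± 0.20, adjusted P = 1.10e-05). The WT libraries lay close together here, and the fold change against WT replicate 4 was 2.47. *Pf4*, a platelet chemokine of the same marker list, was at 1.35 to 3.63 RPM against 2.07 to 9.57 RPM (log2 fold change -0.99, adjusted P = 0.203). *F11r* (chromosome 1, 171437535 to 171464603), the junctional adhesion molecule JAM-A, was at 60.1, 119, 87.2, and 127 RPM against 18.2, 16.3, 16.9, and 38.2 RPM (log2 fold change 2.12, adjusted P = 8.72e-04). WT replicate 4 was the highest WT library of *F11r*, and against it alone the log2 fold change was 1.28.

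The other genes of this group were secreted or of mixed function. *Cp* (chromosome 3, 19957054 to 20009145), which encodes ceruloplasmin, a copper enzyme that oxidizes iron so that transferrin can bind it, was at 22.2, 16.6, 30.7, and 31.6 RPM against 1.61, 1.92, 2.39, and 2.15 RPM (log2 fold change 3.08, adjusted P = 0.001903). *Wfdc17* (chromosome 11, 83703991 to 83706268), a small secreted WAP-domain protein of macrophages, was at 183, 194, 254, and 225 RPM against 26.3, 29.2, 27.5, and 83.5 RPM (log2 fold change 2.51, adjusted P = 3.09e-04), and 1.34 against WT replicate 4, its highest WT library. *Art3* (chromosome 5, 92331827 to 92414628), a member of the ADP-ribosyltransferase family, was at 37.6, 23.2, 28.4, and 19.5 RPM against 3.08, 3.09, 3.65, and 2.84 RPM (log2 fold change 2.72, adjusted P = 6.29e-05). *Rmrp*, the RNA of the RNase MRP complex, was at 4066, 3050.4, 2994, and 3121 RPM against 543, 813, 743, and 1275 RPM (log2 fold change 2.03, adjusted P = 0.0139). Its adjusted P reached 0.0557 with 1 library left out and passed 0.05 without WT replicate 1 or WT replicate 3.

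**Figure D3:**
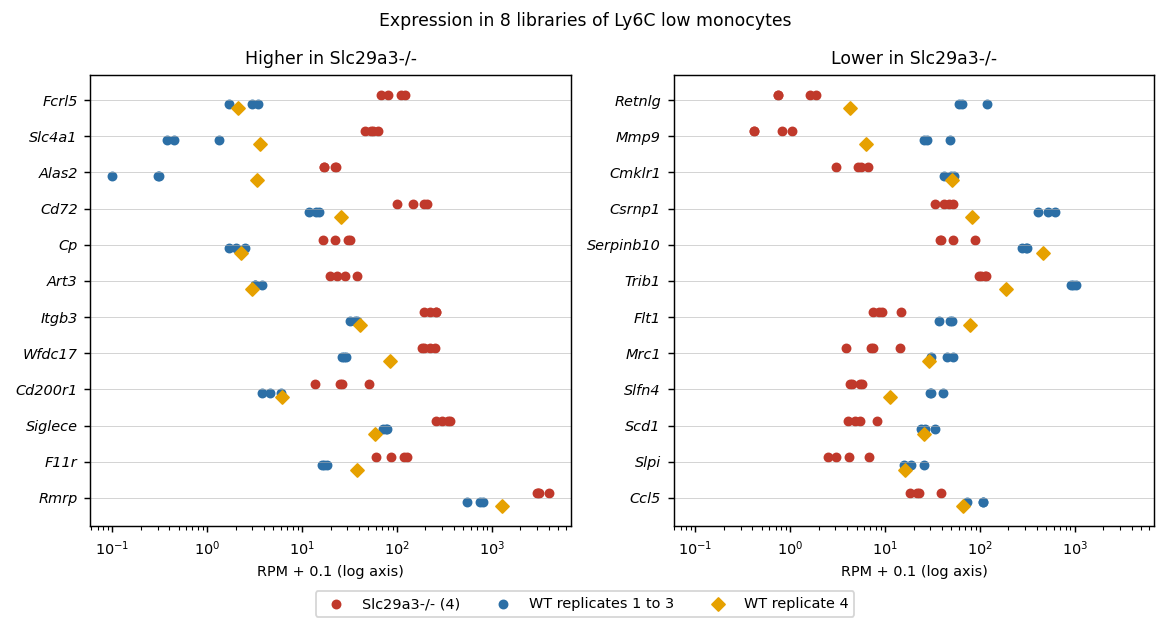
RPM of the 12 genes with the largest rise (left) and the 12 with the largest fall (right), 1 point per library, with 0.1 RPM added and a log axis. Red points, *Slc29a3*-/- libraries; blue points, WT replicates 1 to 3; yellow diamonds, WT replicate 4. No red point overlaps the range of the blue points and the diamond, since the genes were chosen so. The diamond lies between the red and blue points for several genes, among them *Retnlg*, *Mmp9*, *Csrnp1*, *Trib1*, and *Slfn4* on the right. On the left such genes include *Wfdc17*, *F11r*, *Alas2*, and *Rmrp*.

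Transcripts of red cell precursors were higher in every *Slc29a3*-/- library. *Slc4a1* (chromosome 11, 102348824 to 102366203), the anion exchanger band 3 of the red cell membrane, was at 45.7, 53.6, 55.9, and 63.9 RPM in *Slc29a3*-/- and 0.28, 1.24, 0.351, and 3.52 RPM in WT libraries (log2 fold change 4.76 ± 0.43, adjusted P = 2.77e-05). *Alas2* (chromosome X, 150547375 to 150570638), the erythroid enzyme that starts heme synthesis, was at 16.8, 22.3, 22.95, and 17 RPM against 0.21, 0.206, 0, and 3.22 RPM (adjusted P = 8.72e-04). WT replicate 4 was the highest WT library for both genes, with log2 fold changes of 3.61 and 2.29 against it. That it lay below every *Slc29a3*-/- library was a condition for naming these genes. *Car2*, the carbonic anhydrase of red cells and several other cells, was at 42.3 to 61.4 RPM against 15.5 to 29.5 RPM and passed only the unadjusted threshold (adjusted P = 0.0713). Of the 13 genes of the erythroid list, 5 passed the filter and 3 rose, with a median log2 fold change of 3.33 over those tested beside 0.002 over all genes. The summed level of the list was 126 to 167 RPM in *Slc29a3*-/- and 16.9 to 35.1 RPM in WT libraries, although TER-119+ cells had been depleted. The globin genes and *Ahsp* of the list were not analysed here. In bulk RNA, a change in the number of cells of a type and a change in RNA per cell cannot be told apart.

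*Cmklr1*, *Flt1*, and *Ccl5*, which act in migration or growth factor signaling, were among the 12 genes with the largest fall. *Cmklr1* (chromosome 5, 113612354 to 113650426), the receptor for the chemoattractant chemerin, was at 5.09, 2.96, 5.52, and 6.51 RPM in *Slc29a3*-/- and 52.8, 41.3, 49.7, and 50.3 RPM in WT libraries (log2 fold change -3.07 ± 0.30, adjusted P = 3.66e-05). WT replicate 4 stood among the other WT libraries, with a log2 fold change of -3.13 against it. *Flt1* (chromosome 5, 147561604 to 147726011), a receptor for vascular endothelial growth factor, was at 14.8, 9.28, 7.33, and 8.501 RPM against 51.2, 47.8, 36.6, and 77.9 RPM (log2 fold change -2.30, adjusted P = 0.00136). *Ccl5* (chromosome 11, 83525778 to 83530518), the chemokine RANTES, was at 22.6, 21.5, 38.6, and 18.2 RPM against 107, 106, 73.1, and 66.9 RPM (log2 fold change -1.79, adjusted P = 0.00122). *Ccl5* is also made by NK and T cells, whose marker lists are given below.

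*Serpinb10*, *Slpi*, *Scd1*, and *Mrc1* were also among the 12. *Serpinb10* (chromosome 1, 107529003 to 107549271), a serine protease inhibitor of myeloid cells, was at 88.4, 51.8, 39.2, and 37.9 RPM against 306, 316, 276, and 457 RPM (log2 fold change -2.68 ± 0.25, adjusted P = 2.77e-05). Here WT replicate 4 was the highest of all 8 libraries. *Slpi* (chromosome 2, 164354070 to 164389095), the secreted inhibitor of leukocyte proteases, was at 4.05, 2.4, 6.62, and 2.94 RPM against 25.8, 15.9, 18.8, and 16.2 RPM (adjusted P = 0.004001). *Scd1* (chromosome 19, 44394455 to 44407879), the desaturase that makes monounsaturated fatty acids and is a target of the oxysterol receptor LXR, was at 5.33, 3.92, 8.04, and 4.69 RPM against 33.9, 26.01, 23.7, and 25.8 RPM (adjusted P = 8.72e-04). Log2 fold changes of *Slpi* and *Scd1* were -2.05 and -2.15 against all WT and -1.85 and -2.08 against WT replicate 4. *Mrc1* (chromosome 2, 14229392 to 14332057), the macrophage mannose receptor, was at 3.74, 7.04, 7.33, and 14.4 RPM against 44.6, 52.3, 30.6, and 29.2 RPM (log2 fold change -2.22, adjusted P = 0.00133).

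In 5 other genes of the 12, the fall was far larger against WT replicates 1 to 3 than against WT replicate 4. *Trib1* (chromosome 15, 59648350 to 59657099), a pseudokinase that directs the degradation of C/EBP factors, was at 98.2, 102, 114, and 115 RPM in *Slc29a3*-/- libraries, 917, 965, and 1024 RPM in WT replicates 1 to 3, and 189.8 RPM in WT replicate 4 (adjusted P = 0.00274). *Csrnp1* (chromosome 9, 119971163 to 119984658), a nuclear protein induced by axin, was at 41.3, 33.7, 47.5, and 51.5, at 411, 618, and 522, and at 81.5 RPM in the same order (adjusted P = 0.00507). For *Slfn4* (chromosome 11, 83175186 to 83190216), a myeloid member of the Schlafen family, the values were 4.21, 5.6, 4.42, and 5.402, then 29.5, 41.1, and 30.8, and 11.3 RPM (adjusted P = 0.00812). Log2 fold changes of *Trib1*, *Csrnp1*, and *Slfn4* were -2.58, -2.88, and -2.18 against all WT and -0.82, -0.91, and -1.06 against WT replicate 4. *Retnlg* (chromosome 16, 48872621 to 48874496) and *Mmp9* (chromosome 2, 164940780 to 164955850), a resistin-like protein and the gelatinase B of neutrophils, belong to the neutrophil list described next. *Retnlg* was at 0.636 to 1.75 RPM in *Slc29a3*-/-, 60.04 to 118 RPM in WT replicates 1 to 3, and 4.21 RPM in WT replicate 4 (log2 fold change -4.26, adjusted P = 0.00623), and *Mmp9* was at 0.318 to 0.946, at 25.5 to 48.7, and at 6.21 RPM (log2 fold change -3.88, adjusted P = 1.44e-04).

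Neutrophil transcripts divided the WT libraries. The summed level of the 13 neutrophil genes was 150.1 to 335 RPM in *Slc29a3*-/- libraries, 1229 to 2617 RPM in WT replicates 1 to 3, and 252 RPM in WT replicate 4, and no gene of the list was at 0 in all 8 libraries. Of the 11 genes that passed the filter, 10 were lower at the unadjusted and 4 at the adjusted threshold, with a median log2 fold change of -2.99 against all WT and 0.17 against WT replicate 4. *S100a9*, a subunit of the abundant cytosolic protein calprotectin, was at 9.14, 29.8, 27.1, and 67.9 RPM in *Slc29a3*-/-, 499, 864, and 394 RPM in WT replicates 1 to 3, and 22.99 RPM in WT replicate 4 (adjusted P = 0.0811). *Ngp*, a granule protein, was at 8.35 to 70.2, 332 to 754, and 19.2 RPM in the same groups (adjusted P = 0.1297). WT replicate 4 was within the *Slc29a3*-/- range for both genes. Neutrophils had been depleted and Ly6G+ cells gated out.

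Immediate early genes, which are transcribed within minutes of a stimulus, including tissue dissociation, showed the same division. *Fos*, a subunit of the AP-1 factor, was at 40.2, 41.3, 29.6, and 40.6 RPM in *Slc29a3*-/- libraries, at 3399, 2446, and 2870.2 RPM in WT replicates 1 to 3, and at 38.9 RPM in WT replicate 4, so that its log2 fold change of -4.68 against all WT became -0.05 against WT replicate 4. *Fosb*, a related subunit, was at 0.239, 0.800, 0.237, and 0.238, at 215, 139, and 156, and at 0.307 RPM, and *Egr1*, a zinc finger factor, was at 7.24 to 11.7, at 279 to 433, and at 8.43 RPM. WT replicate 4 lay within the *Slc29a3*-/- range for each of the 3 genes. Adjusted P against all WT was 0.03696, 0.0207, and 0.0308, and up to 0.132, 0.0846, and 0.114 with 1 library left out. *Dusp1* and *Junb* fell as well against all WT (log2 fold changes -3.68 and -1.19, against -0.52 and -0.07 with WT replicate 4), with adjusted P values of up to 0.1005 and 0.1004 with 1 library left out. Of the 19 of 22 immediate early genes that passed the filter, 13 were lower at the unadjusted threshold and 8 fell at the adjusted one, whereas against WT replicate 4 0 were lower and 1 was higher. The median was -1.48 against all WT and 0.19 against WT replicate 4. *Fos*, *Egr1*, and *Dusp1* were named after their values had been seen.

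A further 6 genes were chosen because they met the conditions on the mean, the adjusted P, and the overlap but did not differ by over 1.5-fold from WT replicate 4, as did 56 genes that rose and 52 that fell. Those with the largest fall were *Rgcc*, a regulator of the cell cycle, the neutrophil collagenase *Mmp8*, and the chemerin-binding receptor *Ccrl2*, with log2 fold changes of -2.74, -2.43, and -2.32 against all WT and -0.26, -0.58, and -0.34 against WT replicate 4 (adjusted P of up to 0.0733, 0.156, and 0.0715 with 1 library left out). *Ccrl2* was at 23.5 to 29.9 RPM in *Slc29a3*-/-, 209 to 229 RPM in WT replicates 1 to 3, and 34.9 RPM in WT replicate 4. Those with the largest rise were *Sipa1l1*, which encodes a Rap GTPase-activating protein, *Clec2d*, a ligand of an inhibitory NK receptor, and *Oraov1*. *Clec2d* was at 1210.4 to 1320.5, 344 to 395, and 1096 RPM in the same groups, and the log2 fold changes of the 3 genes were 1.45, 1.39, and 1.37 against all WT and 0.53, 0.21, and 0.48 against WT replicate 4. The adjusted P of *Clec2d* and *Oraov1* was 0.0511 and 0.0527 without WT replicate 3.

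NK and T cell transcripts were low in all 8 libraries. The 9 NK cell genes summed to 17.4 to 50.2 RPM in *Slc29a3*-/-, 93.8 to 154 RPM in WT replicates 1 to 3, and 37.5 RPM in WT replicate 4. All 9 were tested, with a median of -1.18 (-0.53 against WT replicate 4). At the unadjusted threshold 7 were lower (7.05% of all genes), and 2 fell (2.53% of all genes). These were *Klrb1c*, which encodes the NK1.1 antigen that was gated out, at 2.703, 3.12, 7.18, and 0.715 RPM against 36.97, 31.1, 20.9, and 5.13 RPM, and the cytotoxic protease *Gzmb*, at 1.99 to 5.36 RPM against 5.13 to 18.6 RPM (adjusted P = 0.0304 and 0.0272, up to 0.114 and 0.107 with 1 library left out). Of the 2 genes that fell, 1 was also over 1.5-fold lower than in WT replicate 4. *Ifng* was at 0.0800 to 0.631 RPM in *Slc29a3*-/-, 2.53 to 6.52 RPM in WT replicates 1 to 3, and 0.307 RPM in WT replicate 4, and did not pass the filter. For the 10 T cell genes the sums were 12.3 to 22.2, 24.4 to 35.4, and 85.9 RPM in the same groups, and 3 of 7 tested genes were lower at the unadjusted threshold and 0 at the adjusted one. The part of such cells in the fall of *Ccl5* was not tested.

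Among monocyte markers, the gene of the receptor used for sorting rose. *Fcgr4* (chromosome 1, 171018920 to 171029761), which encodes FcγRIV, was at 2323, 2851, 2406, and 3017 RPM in *Slc29a3*-/- and 781, 769, 821, and 605 RPM in WT libraries (log2 fold change 1.83 ± 0.15, adjusted P = 1.73e-05), and against WT replicate 4 the log2 fold change was 2.12. Since cells were gated on FcγRIV, the gate and the level per cell cannot be told apart. *Itgal*, the αL chain of the integrin LFA-1, rose, at 4156 to 5897 RPM against 2483 to 3525 RPM in WT (adjusted P = 0.0325, up to 0.119 with 1 library left out), and *Cd36*, the scavenger receptor for oxidized lipid, fell, at 144 to 246 RPM against 298 to 604 RPM in WT (adjusted P = 0.005701). *Cx3cr1*, the fractalkine receptor that marks these cells, was at 178 to 210.5 RPM in *Slc29a3*-/-, 66.8 to 122 RPM in WT replicates 1 to 3, and 292 RPM in WT replicate 4, so that WT replicate 4 was the highest and the other WT libraries the lowest (adjusted P = 0.439). *Nr4a1* was at 1832 to 2378, 4421 to 5241, and 1418 RPM in these groups (adjusted P = 0.255). Of the 14 nonclassical monocyte genes, 2 rose and 1 fell, with a median of 0.21. Of the 8 classical monocyte genes tested of 12, 3 were lower at the unadjusted threshold and 0 fell, with a median of -0.48.

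In the list of Fc receptors and ITAM adaptors, receptor genes and *Syk* passed the adjusted threshold and the adaptor genes described here did not. Of 24 tested genes of this list, 3 rose and 2 fell, beside 1.90% and 2.53% of all genes, and the median was 0.18. Besides *Fcgr4*, the inhibitory Fc receptor *Fcgr2b* rose, at 57.2 to 106 RPM against 27.7 to 37.9 RPM in WT (adjusted P = 0.0139, up to 0.0584 with 1 library left out), and *Syk*, the kinase that activating Fc receptors recruit, rose, at 502 to 661 RPM against 210.3 to 352 RPM in WT (log2 fold change 1.16, adjusted P = 9.49e-04). *Clec7a*, the β-glucan receptor dectin-1, fell and was at 211, 151, 190.4, and 170.2 RPM against 473, 542, 512, and 606 RPM (log2 fold change -1.56 ± 0.15, adjusted P = 4.52e-05). *Trem2*, a lipid receptor that signals through DAP12, fell, at 3.2 to 5.41 RPM against 6.05 to 13.6 RPM in WT (adjusted P = 0.0301, up to 0.107). Its fall was not over 1.5-fold against WT replicate 4. For the adaptors, log2 fold changes were 0.30 ± 0.17 for *Fcer1g* (FcRγ), -0.16 ± 0.13 for *Tyrobp* (DAP12), and -0.22 ± 0.16 for *Hcst* (DAP10). *Csf1r*, the receptor for the macrophage growth factor M-CSF, was at 2045 to 2248 RPM against 1241 to 1982 RPM and did not overlap, with an adjusted P of 0.216. *Fcgr2b*, *Syk*, and *Trem2* were named after their values had been seen.

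The genes of antigen presentation and of conventional dendritic cells that passed a threshold were all lower. Over all genes, 7.05% were lower at the unadjusted threshold and 2.53% fell. Of 15 genes of antigen presentation and costimulation, 4 fell, 7 were lower at the unadjusted threshold, and none rose, and against WT replicate 4 alone 9 were lower and 3 fell. The median was -0.61 against all WT, -1.15 against WT replicate 4, and -0.39 against WT replicates 1 to 3. *H2-Eb1*, a class II β chain, was at 164, 202, 347, and 262 RPM in *Slc29a3*-/- and 403, 509, 464, and 635 RPM in WT libraries (log2 fold change -1.08, adjusted P = 0.0387, up to 0.125 with 1 library left out). *H2-Aa*, a class II α chain named after its values had been seen, was at 186 to 277 RPM against 353 to 847 RPM (adjusted P = 0.0891), and *Cd74*, the invariant chain, was at 1318 to 2237 RPM against 2202 to 3762 RPM with overlap. *H2-Oa*, a chain of the modulator H2-O, and *Cd80*, a ligand of CD28, fell with log2 fold changes of -1.25 and -1.51 (adjusted P of up to 0.0823 and 0.102 with 1 library left out). Among 8 tested genes of conventional dendritic cells, 3 fell and none rose: *Clec9a*, the dead-cell receptor of cross-presenting dendritic cells, at 3.81 to 7.65 RPM against 12.9 to 18.5 RPM in WT (adjusted P = 0.00757), the growth factor receptor *Flt3* at 1.11 to 4.101 RPM against 4.57 to 13.3 RPM in WT (adjusted P = 0.0217, up to 0.0843), and the transcription factor *Zbtb46* at 1.59 to 3.36 RPM against 4.64 to 9.96 RPM in WT (adjusted P = 0.0198, up to 0.0709). Of the 8 genes, 2 had a positive and 6 a negative log2 fold change. The *Slc29a3*-/- libraries did not overlap with WT for 1 gene that was higher and 5 that were lower, beside 17.7% of all genes. The summed level of this dendritic cell list was 189.7 to 219 RPM against 148 to 248 RPM, and the part of dendritic cells in the level of the class II genes was not tested. Of 4 tested genes of the plasmacytoid dendritic cell list, 1 was higher and 1 lower at the unadjusted threshold, and *Siglech* fell, at 0.315 to 1.27 RPM against 2.299 to 9.402 RPM in WT (adjusted P = 0.0188, up to 0.0733).

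Red pulp macrophage genes split. Red pulp macrophages of the spleen recycle iron from old red cells. Of 12 tested genes of their list 2 rose and 2 fell, beside 1.90% and 2.53% of all genes. *Spic*, the transcription factor that makes these macrophages, rose, at 22.02 to 41.7 RPM against 8.78 to 14.3 RPM in WT (log2 fold change 1.39, adjusted P = 0.0114, 0.0501 without WT replicate 3), and *Adgre1*, which encodes F4/80, rose, at 254 to 324 RPM against 101.4 to 199 RPM in WT (adjusted P = 0.0463, up to 0.158). *Cd163*, the receptor for hemoglobin bound to haptoglobin, was at 0, 1.28, 1.34, and 1.19 RPM against 13.1, 14.96, 11.9, and 15.3 RPM (log2 fold change -2.99, adjusted P = 0.00701), and *Mrc1* fell as given above. Summed over the list, the level was 918 to 1478 RPM against 714 to 803 RPM. Of 12 complement genes, *C3ar1*, the receptor for C3a, rose, at 3.66 to 7.23 RPM against 0.536 to 1.92 RPM in WT (adjusted P = 0.0141, 0.0568 without *Slc29a3*-/- replicate 4), and *C5ar1*, the receptor for C5a, fell, at 30.2 to 41.3 RPM against 49.1 to 94.4 RPM in WT (adjusted P = 0.0342, up to 0.106). *C1qb*, also on the red pulp list and named after its values had been seen, was at 78.6 to 241 RPM against 53.5 to 74.2 RPM (adjusted P = 0.0731).

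Calls among genes of TLR sensing and nucleoside handling are given beside the 1.90% of all genes that rose and the 2.53% that fell. Of 17 genes of endosomal TLR sensing, 1 rose and 1 fell: *Slc15a3*, a peptide and histidine transporter of the endolysosome, at 138 to 158 RPM against 72.3 to 98.9 RPM in WT (log2 fold change 0.80, adjusted P = 0.0261, up to 0.0859 with 1 library left out), and *Traf6*, a ubiquitin ligase of TLR signaling, at 57.8 to 71.7 RPM against 87.4 to 118 RPM in WT (-0.73, adjusted P = 0.0205, up to 0.0782). Against WT replicate 4, the rise of *Slc15a3* was over 1.5-fold but the fall of *Traf6* was not. *Unc93b1*, the chaperone that carries TLR7 to endosomes, had a log2 fold change of 0.17 ± 0.27. Of 15 tested genes that degrade nucleic acids or handle nucleosides, 2 rose and none fell, with a median of 0.37. *Acp5*, the tartrate-resistant acid phosphatase, was at 260.4, 322, 398, and 477 RPM against 131, 152, 118, and 130.4 RPM (log2 fold change 1.42 ± 0.18, adjusted P = 4.99e-04), and WT replicate 4 lay among the other WT libraries. *Samhd1*, which hydrolyses deoxynucleotides, rose, at 668 to 992 RPM against 229.7 to 662 RPM in WT (adjusted P = 0.0435, up to 0.145), but by only 0.22 against WT replicate 4. *Slc29a1*, the nucleoside transporter of the plasma membrane, was at 55.6 to 88.6 RPM against 18.1 to 47.8 RPM (adjusted P = 0.0553), and *Pld4*, an endolysosomal exonuclease, was at 1372 to 1464 RPM against 1543 to 2028 RPM (adjusted P = 0.1698). *Slc29a1* was named after its values had been seen.

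Calls in the lysosomal, proton pump, and lipid lists are read beside the 1.90% of all genes that rose and the 2.53% that fell. Of 32 lysosomal genes, *Lamp1* rose, at 876 to 1015 RPM against 404 to 745 RPM in WT (adjusted P = 0.0432, up to 0.128) and *Gla*, the α-galactosidase, fell, at 6.04 to 8.76 RPM against 11.6 to 32.1 RPM in WT (adjusted P = 0.0114, 0.0507 without WT replicate 3), and the median was 0.05. Neither *Lamp1* nor *Gla* differed by over 1.5-fold from WT replicate 4 in that direction. Neither threshold was passed by any of 14 subunits of the V-ATPase, the proton pump of the lysosome, in limma, where 2 subunits did not overlap between the groups, beside 17.7% of all genes. Of 14 genes of cholesterol synthesis and uptake, 1 was higher at the unadjusted threshold and 0 at the adjusted one, with a median of -0.02. In the list of LXR targets and lipid efflux, *Scd1* was the only one of 15 genes past the adjusted threshold. In the heme and iron list, *Cp* and *Bach1*, a repressor that heme releases from DNA, rose, the latter at 194 to 213 RPM against 111 to 176 RPM in WT (adjusted P = 0.0364, up to 0.133). The log2 fold change of *Bach1* was 0.59 against all WT but only 0.21 against WT replicate 4.

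Inflammatory genes moved in both directions. Of 26 tested NF-κB targets and inflammatory genes, 2 rose and 4 fell, beside 1.90% and 2.53% of all genes. Their median was -0.21 against all WT and 0.11 against WT replicate 4. *Il1b*, the proinflammatory cytokine IL-1β, was at 699, 746, 716, and 683 RPM in *Slc29a3*-/- and 311, 317, 348, and 367 RPM in WT libraries (log2 fold change 1.08 ± 0.27, adjusted P = 0.0384, up to 0.115 with 1 library left out). *Nlrp3*, the sensor of the inflammasome that matures IL-1β, went the other way, at 39.1, 34.1, 32.7, and 44.4 RPM against 98.5, 107, 104, and 104 RPM (log2 fold change -1.45 ± 0.14, adjusted P = 3.63e-05). Against WT replicate 4 the log2 fold changes were 0.95 and -1.45. *Bcl3*, a nuclear regulator of NF-κB, rose, at 103 to 135 RPM against 67.8 to 74.01 RPM in WT (adjusted P = 0.00958). The chemokine *Cxcl2* was at 0 to 0.400 RPM in *Slc29a3*-/-, 39.6 to 48.9 RPM in WT replicates 1 to 3, and 0.307 RPM in WT replicate 4, and the cyclooxygenase *Ptgs2* at 0 to 0.16, 8.81 to 15.3, and 0.613 RPM, so that WT replicate 4 stood with or near the *Slc29a3*-/- libraries. Adjusted P was 0.0166 and 0.0139, and up to 0.0733 and 0.0614 with 1 library left out, and both genes were named after their values had been seen. *Tnf* was at 0.72 to 2.05 RPM against 1.48 to 2.196 RPM (adjusted P = 0.522). *Il6* (0.0800 to 1.18 against 0.46 to 1.65 RPM) and *Ifnb1* (0 to 0.0800 against 0.137 to 0.383 RPM) did not pass the filter, and *Il17a* and *Il23a* were at 0 in all 8 libraries.

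In the interferon-stimulated, survival, and cell cycle lists, single genes passed the adjusted threshold, beside 1.90% of all genes that rose and 2.53% that fell. Of 32 interferon-stimulated genes, *Rsad2*, the antiviral enzyme viperin, rose, at 13.8 to 18.3 RPM against 2.75 to 6.74 RPM in WT (log2 fold change 1.42, adjusted P = 0.0116) and none fell, and the median was 0.15. *Bmf*, a proapoptotic BH3-only protein, rose, at 162 to 194 RPM against 45.2 to 156 RPM in WT (adjusted P = 0.0438, up to 0.134), 1 of 22 proapoptotic genes, but the log2 fold change was 0.22 against WT replicate 4. *Pim1*, a survival kinase and 1 of 12 antiapoptotic genes, and *Cdkn1a*, the cell cycle inhibitor p21 and 1 of 31 cell cycle genes, fell with log2 fold changes of -1.57 (adjusted P = 0.0384, up to 0.138) and -1.65 (adjusted P = 0.0105). WT replicates 1 to 3 stood apart, at 2035 to 2215 RPM for *Pim1* and 242 to 263 RPM for *Cdkn1a*, beside 451 and 74.8 RPM in WT replicate 4 and 438 to 535 and 54.8 to 66.96 RPM in *Slc29a3*-/-. The same was true of *Sgk1*, a kinase induced by glucocorticoids, at 514 to 576, 109.9, and 88.8 to 134 RPM (adjusted P = 0.0296, up to 0.112), the only gene past the adjusted threshold of 11 tested in the list of heat shock and handling stress.

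Migration, transcription factor, and glycolysis lists held single genes that kept their direction against WT replicate 4. *Fpr1*, the receptor for formylated peptides of bacteria and mitochondria, rose, at 99.1 to 142 RPM against 26.6 to 59.5 RPM in WT (log2 fold change 1.75, adjusted P = 9.49e-04, 0.96 against WT replicate 4), and *Selplg*, the selectin ligand PSGL-1 named after its values had been seen, rose, at 408 to 564 RPM against 258 to 339 RPM in WT (adjusted P = 0.0456, up to 0.149). With *Itgal* and *Cmklr1*, 3 of 23 tested genes of migration rose and 1 fell, beside 1.90% and 2.53% of all genes. Of 22 transcription factors, 1 rose (*Spic*) and 2 fell. *Runx3*, named after its values had been seen, fell, at 15.9 to 22.2 RPM against 40.8 to 62.9 RPM in WT (adjusted P = 0.03198, up to 0.108). *Pfkfb3*, which makes the activator of phosphofructokinase, rose, at 253 to 327 RPM against 85.6 to 116 RPM in WT (log2 fold change 1.53, adjusted P = 0.00251), and *Slc2a3*, a glucose transporter, fell, at 6.92 to 11.7 RPM against 19.1 to 23.8 RPM in WT (adjusted P = 0.0145, up to 0.0583). Of 23 nuclear genes of mitochondrial respiration, none rose or fell in limma, and 2 were higher and 1 lower at the unadjusted threshold. *Ccr3*, the eotaxin receptor of the eosinophil and basophil list, fell, at 0.477 to 3.098 RPM against 7.55 to 11.5 RPM in WT (log2 fold change -2.40, adjusted P = 8.94e-04), the only gene called of 6 tested there, although SiglecF+ cells had been gated out.

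In the remaining lists, 1 of 19 genes of scavenging and apoptotic cell uptake fell and 0 rose, and 1 of 7 genes of myeloid progenitors and primary granules fell, namely *Cd36* and *Flt3* given above, with medians of -0.12 and -0.95.

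**Figure D4:**
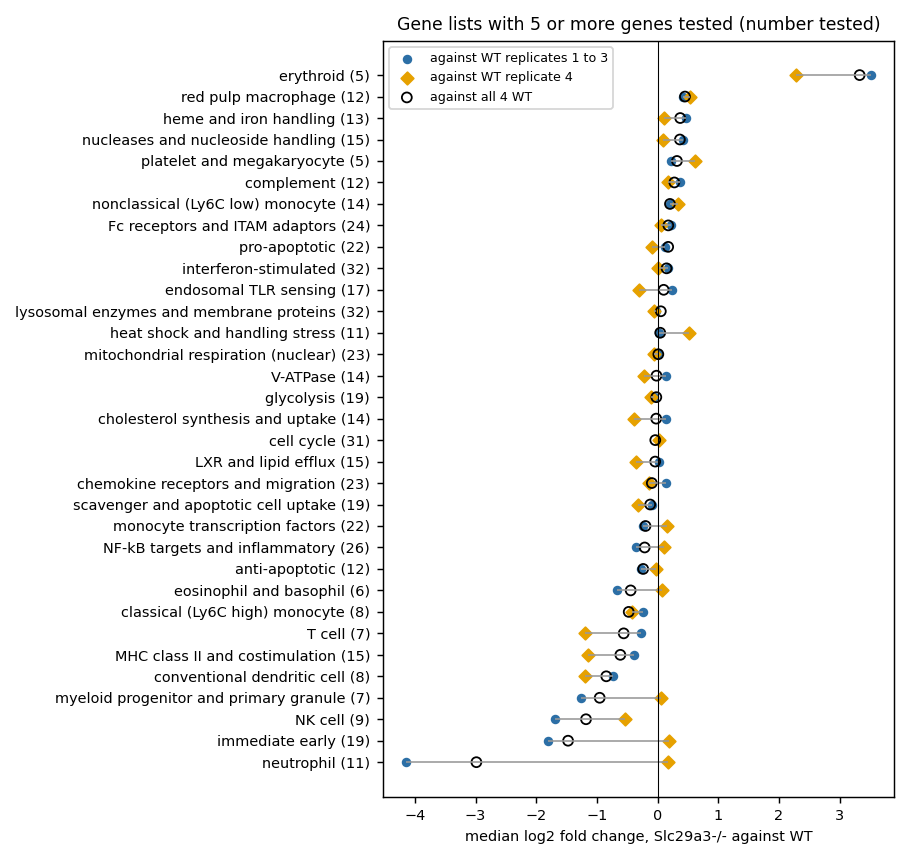
Median log2 fold change of each gene list with 5 or more genes tested, in *Slc29a3*-/- against all 4 WT libraries (open circles), WT replicates 1 to 3 (blue), and WT replicate 4 (yellow diamonds). The neutrophil and immediate early lists moved from -4.15 and -1.81 to 0.17 and 0.19, whereas the erythroid list moved from 3.52 to 2.29.

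Of the 79 genes named that passed the adjusted threshold, 38 passed it with any 1 of the 8 libraries left out. Leaving out WT replicate 4, after which genotype and barcode range cannot be told apart, ended no call. Leaving out any other single library ended 24 to 38.

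The effect of the genotype was compared with that in Ly6C high monocytes of the same genotypes by a test of the difference itself. Over all genes, 822 (7.97%) differed at an adjusted P under 0.05 and by over 1.5-fold, and of the 24 genes with the largest changes 17 did. Since the 24 were chosen for their change in Ly6C low monocytes, which is a term of the difference, this share is a description and not to be set against that of all genes. *Slc4a1* had the largest difference, with a log2 fold change of 4.76 in Ly6C low and -0.74 in Ly6C high monocytes (difference 5.50 ± 0.52, adjusted P = 1.10e-06). *Cd72* followed, at 3.22 and -1.37, and then *Fcrl5*, at 4.79 and 1.28 (adjusted P = 1.10e-06). No difference was called for *Retnlg*, *Flt1*, or *F11r*, nor for *Trib1* (-3.23 in Ly6C high monocytes), *Csrnp1* (-2.59), *Ccl5* (-2.96), or *Mrc1* (-1.73), whose log2 fold changes in Ly6C high monocytes were also negative. The Ly6C high values are against all 4 WT libraries, which were split by barcode in the same way. Their replicates 1 to 3 carried barcodes 14 to 16 and replicate 4 carried barcode 29, beside 24 to 27 in *Slc29a3*-/-. With WT replicate 4 of each subset as the only control, 7 of the 17 differences kept an adjusted P under 0.05.

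**Figure D5:**
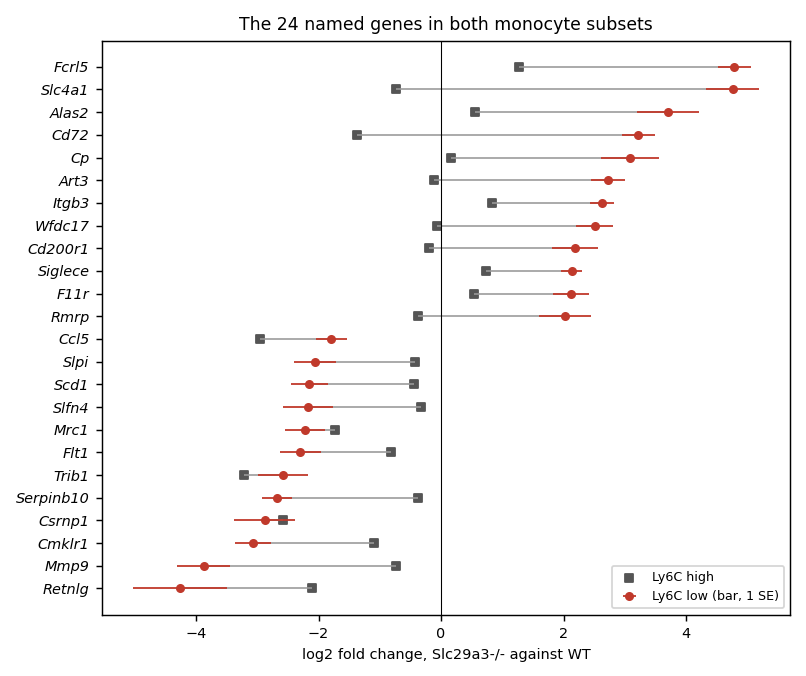
Log2 fold change of the 24 named genes in *Slc29a3*-/- against WT in Ly6C low monocytes (red, with 1 SE) and in Ly6C high monocytes (grey squares). The genes were chosen by the red values. All 12 genes that rose lay higher in the Ly6C low subset, whereas *Ccl5* and *Trib1* lay lower in the Ly6C high subset.

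Beside the *Slc29a3*-/- libraries, the *Slc29a3*-/- *Tlr7*-/- libraries of Ly6C low monocytes were at 7.67 to 15.5 RPM for *Fcrl5*, 12.6 to 23.99 RPM for *Cd72*, 1.43 to 8.13 RPM for *Slc4a1*, and 238 to 345 RPM for *Serpinb10*. *Slc29a3*-/- differed from them by 2.81, 3.13, 3.80, and -2.55 on the log2 scale (adjusted P = 9.80e-05, 5.09e-05, 3.96e-04, and 1.10e-04), a comparison that shares the *Slc29a3*-/- libraries with the one above. The *Fcrl5* values of the *Slc29a3*-/- *Tlr7*-/- libraries all lay above WT, whereas those of the other genes overlapped with WT. The platelet list, which holds *Itgb3*, summed to 101 to 199 RPM in *Slc29a3*-/- *Tlr7*-/-, 208 to 271 RPM in *Slc29a3*-/-, and 49.7 to 64.4 RPM in WT libraries. In *Slc29a3*-/- and WT libraries most of this sum was *Itgb3* itself. It was the only one of 5 tested genes of the list that rose against WT, and 1 gene was lower at the unadjusted threshold. The genes of this paragraph do not stand for the rest of the largest changes, which are not compared here.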

How the data were processed

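Ion AmpliSeq libraries of sorted splenic monocytes were read on an Ion Proton sequencer. Per the study's methods, reads were trimmed with Cutadapt, mapped to mm10 with STAR, counted with HTSeq, and tested with DESeq2 by the authors. The deposited table holds RPM, the reads of an amplicon per 1000000 reads of a library, for 23930 amplicons, with 0 written as 0.0001. Which program wrote it is not given in the sources used here. The 10317 genes that reached 1 RPM in 4 or more of the 12 Ly6C low libraries were tested on log2(RPM + 1) in limma 3.58.1 (R 4.3.3) with an intensity trend, in 3 genotype groups. Such fold changes understate the change of genes near 1 RPM. The test is two-sided, P values were adjusted by the Benjamini-Hochberg method, and the fit was tested on simulated data. WT replicate 4 was also fitted as its own group, without rescaling of the RPM values. The difference between subsets was an interaction contrast over 24 libraries. Gene positions are those of GENCODE vM21 (mm10), matched by symbol, and give the whole gene, since the amplicon positions were not used here.

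Beside the 24 genes with the largest changes, the 3 largest rises and 3 largest falls that did not hold against WT replicate 4 were named, as were, in each gene list, the 2 members with the highest level and the 2 with the smallest P, and genes of the TLR7 pathway, but for a few that are not reported here. Members, lists, and tests were chosen with earlier results of these data known. The alternatives were TMM and RLE scaling, other filters, a pseudocount of 0.1 RPM, other sets of libraries, no intensity trend, and the replicate number as a block.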

Additional observations from a re-analysis of the deposited data

Results flagged for a closer look

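In 103 genes named, the 4 WT and the 4 *Slc29a3*-/- libraries were each searched for a single library far from the other 3 by Dixon's criterion, which chance meets in about 1 group in 20. It was met in 23 of 206 groups, and the library was WT replicate 4 in 16 of them. Some of the genes were named because their change did not hold against WT replicate 4, or after their values had been seen. The counts are therefore a description and not to be set against the share met by chance. WT replicate 4 stood above the other WT libraries for *Alas2* (3.22 RPM), *Clec2d* (1096 RPM), *F11r* (38.2 RPM), *Fcgr2b* (37.9 RPM), *Fpr1* (59.5 RPM), *H2-Aa* (847 RPM), *H2-Oa* (32.7 RPM), and *Wfdc17* (83.5 RPM). It stood below them for *C3ar1* (0.536 RPM), *Ccrl2* (34.9 RPM), *Cdkn1a* (74.8 RPM), *Dusp1* (158 RPM), *Pim1* (451 RPM), *Sgk1* (109.9 RPM), *Trem2* (6.05 RPM), and *Trib1* (189.8 RPM). WT replicate 2 stood apart for *Rsad2* (2.75 RPM). Among *Slc29a3*-/- libraries, replicate 1 stood apart for *Cd163* (0 RPM), *Fcer1g* (4421 RPM), and *Rmrp* (4066 RPM), replicate 2 for *Csf1r* (2248 RPM), replicate 3 for *Fos* (29.6 RPM), and replicate 4 for *Ccr3* (3.10 RPM).

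The effect of the genotype differed between Ly6C low and Ly6C high monocytes by the interaction test in limma (adjusted P under 0.05) for 17 of the 24 genes with the largest changes, which were chosen for the Ly6C low effect that enters the test. The log2 difference, Ly6C low minus Ly6C high, was positive for *Slc4a1* (5.50), *Cd72* (4.59), *Fcrl5* (3.52), *Alas2* (3.16), *Cp* (2.93), *Art3* (2.85), *Wfdc17* (2.58), *Rmrp* (2.41), *Cd200r1* (2.37), *Itgb3* (1.79), and *Siglece* (1.40). It was negative for *Mmp9* (-3.14), *Serpinb10* (-2.29), *Cmklr1* (-1.97), *Slfn4* (-1.85), *Scd1* (-1.71), and *Slpi* (-1.63).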

How the results depend on the processing

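The counts depended most on the WT libraries. Against WT replicate 4 alone, 210 genes were higher at the unadjusted threshold, 29 rose and 52 fell, and 175 differed between subsets. In fits added after seeing the data, which also leave out the *Slc29a3*-/- *Tlr7*-/- libraries and so compare with the 351 and 504 given below, 521 genes rose and 653 fell with the presence of *Xist* as a term, and with only the libraries that expressed *Xist* 1423 were higher, 1311 rose, and 868 fell. Leaving out 1 library in turn, 401 to 1218 genes were higher, 95 to 798 rose, 107 to 608 fell, and 532 to 1060 differed between subsets. The highest counts were those without WT replicate 4. Without it, and with only the libraries that expressed *Xist*, genotype and barcode range of the Ly6C low libraries cannot be told apart. Without a filter, 105 rose and 118 fell. When only genes with a mean of 10 RPM or more were kept, which tests fewer genes, 396 were higher and 384 lower, and 124 rose and 165 fell. With only the groups compared, 351 rose, 504 fell, and 1491 differed between subsets, and with all 24 libraries 321 rose. The cause of these shifts was not tested. TMM and RLE scaling, the pseudocount, and the intensity trend left each count within 1.5 times, but were run with all WT libraries only. TMM and RLE factors were 1.144 and 1.182 in WT replicate 4, the highest of the Ly6C low libraries. In *Slc29a3*-/- libraries they were 0.998 to 1.029 and 1.002 to 1.041. Log2 fold changes against WT replicate 4 alone were not rescaled and carry this difference.

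With the replicate number as a block, 600 genes were higher and 715 lower, 151 rose and 198 fell, and 775 differed between subsets. Same-numbered WT and *Slc29a3*-/- libraries had correlations of deviations of -0.131, -0.099, 0.003, and -0.079, which do not show pairing, so the block is not used elsewhere. As a hint from the data, not the design, 5 of 8 libraries correlated best with their own number. Of 98 genes named and tested, 12 changed sign against WT replicate 4 alone, none of them past the adjusted threshold there: *Cx3cr1* (-0.58), *Egr1* (0.16), *Fosb* (0.057), *Hcst* (0.10), *Ngp* (0.33), *Nr4a1* (0.52), *Pf4* (0.12), *Pim1* (0.10), *S100a9* (0.22), *Slc29a3* (-0.35), *Tlr7* (-0.046), and *Unc93b1* (-0.39). *Tlr7* also changed sign without WT replicate 2 (-0.008). The count tests planned on reads recovered from the RPM values were not run, although the low values in each library were whole multiples of 1 read, so how many genes they would call is not known here. At this depth a value of 0 cannot be told from up to 0.240 RPM.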
